A study of Mus musculus with 6 samples.

Results

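Aminoacyl-tRNA synthetases are the enzymes that load each tRNA with its amino acid, and their mRNAs were compared between muscle stem cells (MuSCs) of control mice and of Taf4asKO mice, in which Taf4a is deleted in these cells. The members were the protein-coding genes whose description in the deposited table names a tRNA synthetase or a tRNA ligase, which are the older and the newer name of the same activity. They numbered 38 of the 22081 genes listed, with 21 cytosolic and 17 mitochondrial enzymes. Of the 39 matching genes, 3 were described as synthetase, 35 as ligase and 1 (Cars2) was matched by its symbol, since its description gives no function. The remaining match, Prorsd1, is described as a protein with a synthetase-associated domain, is no synthetase, and was kept apart.

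The RNA-seq data are from sorted, uncultured MuSCs of adult C57BL/6 mice, with 3 libraries from control and 3 from Taf4asKO animals. In Taf4asKO mice, a pair of Taf4a exons is flanked by loxP sites and is removed in Pax7-expressing cells by the tamoxifen-inducible Cre recombinase Pax7CRE-ERT. According to the methods of the study, tamoxifen was given to males and females of 8 to 20 weeks, and cells were sorted as SCA1-, CD45- and CD31- and then as Integrin-a7+ or as positive for a Pax7-zsGreen reporter. The study reports incomplete purity of its sorted cells, without a value for each of these libraries. Cells were isolated several weeks after tamoxifen. Controls are described by the study as littermates that also had floxed Taf4a alleles, of the genotype Pax7CE+/+ or Pax7CE+/p. Which of these genotypes the control libraries had, and whether their mice received tamoxifen, is not stated in the sources used here. Each library was made from 10 ng of total RNA of 90000 sorted cells. The study describes its replicates as biological, while the labels tie no library to an animal, and p-values measure the spread between these libraries.

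The total per library lay between 12338676 and 14551732 normalized counts, that is, reads divided by a size factor of the library and rounded. No pair of libraries within a group matched within sampling noise, with a chi-square per gene of 3.99 to 50.6. The gene total of Taf4 (the current symbol of Taf4a) was 613, 534 and 478 normalized counts in control against 631, 565 and 574 in Taf4asKO. This total includes the exons that are not deleted and does not check the labels, so every direction is relative to the groups as labelled. Summed MuSC markers were 38984 to 41590 normalized counts in control and 39707 to 41607 in Taf4asKO, with 3 of 8 markers lower and 2 higher. Sums of the genes listed as fibro-adipogenic markers were larger than those in every library, at 68146 to 97632 and 57549 to 81424. They came mostly from Col3a1, Col1a1 and Gsn, although such sums are not per length. Ly6a, which encodes the SCA1 protein sorted against, stayed at 2 to 14 normalized counts.

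A synthetase activates its amino acid with ATP and transfers it to the matching tRNA, so that the ribosome can place it by codon. The nucleus encodes a cytosolic set, part of which is held together in the multi-synthetase complex, and a separate mitochondrial set that serves translation of the few proteins encoded by mitochondrial DNA. Gars and Kars each supply both compartments from a single gene and are counted here as cytosolic. Transcription of many cytosolic synthetase genes is raised by ATF4 when amino acids are short, and muscle stem cells at rest are known for low rates of protein synthesis.

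All 38 synthetase genes were expressed above the limit for testing, a mean of 5 normalized counts, so none was lost before the comparison. With limma on log2(value + 1), 7 of the 38 genes were lower in Taf4asKO MuSCs and 0 were higher, where a call needed a p under 0.05 after Benjamini-Hochberg adjustment and a change of 1.3-fold or more. The lower genes were Sars2, Ears2, Wars2 and Aars2 of the mitochondrial set and Vars, Qars and Dars of the cytosolic set. Over all 18562 genes tested, 6.71% were lower and 5.93% were higher by the same limits, and over the protein-coding genes tested 7.75% and 7.39%. A fit blocked on replicate number left the 7 synthetase calls in place and added 0. In it, 8.98% of all genes were lower and 9.09% higher. The share of lower genes was 18.4% among the synthetases, 14.3% in the cytosolic set (3 of 21) and 23.5% in the mitochondrial set (4 of 17). These shares are a description and were not tested against the background. The median standard error of the log2 fold change was 0.13 in the synthetases, against 0.22 over all and 0.17 over protein-coding genes tested. A call is thus reached at a smaller change in the synthetases, and the shares are not on an equal footing. At an unadjusted limma p under 0.05, 10 of the 38 genes differed (26.3%), a share close to the 28.8% over all genes tested.

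**Figure D1:**
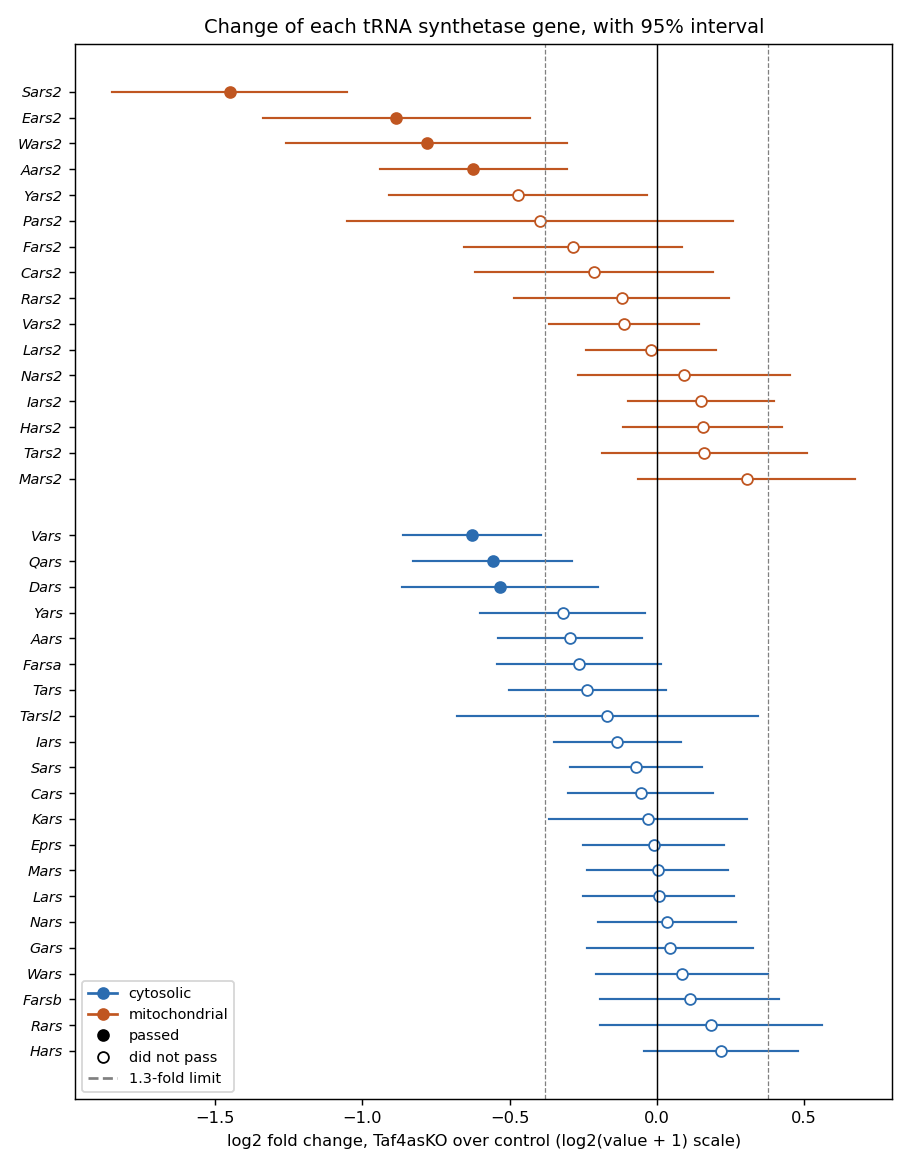
Log2 fold change (Taf4asKO over control, log2(value + 1) scale, horizontal axis) of 37 synthetase genes with the 95% interval of the limma fit. Filled points passed the adjusted p and the 1.3-fold limit drawn as dashed lines. The 7 filled points all lie on the negative side, with Sars2 at -1.45 farthest out.

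Sars2, which attaches serine to mitochondrial tRNAs, had the largest decrease of the 38 genes. It lies at chr7:28742002-28753871 on the plus strand (mm10, as for all gene positions of the table). Normalized counts were 136, 137 and 123 in control against 45, 47 and 51 in Taf4asKO. The Taf4asKO mean was 36.1% of the control mean, and the groups lay far apart compared with the spread within either. The log2 fold change was -1.45 ± 0.18 (SE, n = 3 per group), with a 95% interval of -1.85 to -1.05 and an adjusted p of 0.00108 in limma.

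Ears2 attaches glutamate, and in mitochondria it also loads the tRNA for glutamine with glutamate, which an amidotransferase then converts. It lies at chr7:122038821-122067263 on the minus strand and had normalized counts of 103, 163 and 127 in control against 65, 70 and 73 in Taf4asKO. The control libraries were more spread than the Taf4asKO libraries, and the groups did not overlap. The log2 fold change was -0.88 ± 0.20 (limma adjusted p 0.0196). Of its exon bases, 89 overlap Ubfd1 on the opposite strand, and since the use of strand in counting is not stated, its values are uncertain to that extent.

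Wars2, the mitochondrial enzyme for tryptophan (chr3:99141068-99220203, plus strand), had normalized counts of 143, 109 and 124 in control against 55, 84 and 81 in Taf4asKO. Taf4asKO replicate 1 was the lowest, and the closest libraries of the groups were 109 and 84. The log2 fold change was -0.78 ± 0.21 (limma adjusted p 0.0395). Aars2, the mitochondrial enzyme for alanine (chr17:45506841-45520842, plus strand), had normalized counts of 210, 249 and 208 in control against 137, 141 and 153 in Taf4asKO. All its control libraries were above all Taf4asKO libraries. The log2 fold change was -0.62 ± 0.14 (limma adjusted p 0.0194).

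The promoter sequences of these 4 mitochondrial genes are shown because their expression fell, and because the study examined TAF4A, a subunit of the general transcription factor TFIID, beside NF-Y, which binds CCAAT boxes, and SP1, which binds GGGCGG boxes. Each window spans 250 bases before and 50 bases after the RefSeq start of the gene (GRCm38.p6), reads 5′ to 3′ along the gene's strand, and has in capitals every CCAAT or GGGCGG on either strand, which read ATTGG and CCGCCC where they lie on the opposite strand.
Sars2, chr7:28741718-28742017, plus strand: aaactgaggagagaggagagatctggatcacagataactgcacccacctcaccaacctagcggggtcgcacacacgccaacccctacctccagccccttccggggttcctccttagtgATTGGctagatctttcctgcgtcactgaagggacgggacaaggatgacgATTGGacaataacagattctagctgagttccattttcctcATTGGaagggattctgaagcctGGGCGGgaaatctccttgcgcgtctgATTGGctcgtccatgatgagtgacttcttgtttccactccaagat
Ears2, chr7:122067037-122067336, minus strand: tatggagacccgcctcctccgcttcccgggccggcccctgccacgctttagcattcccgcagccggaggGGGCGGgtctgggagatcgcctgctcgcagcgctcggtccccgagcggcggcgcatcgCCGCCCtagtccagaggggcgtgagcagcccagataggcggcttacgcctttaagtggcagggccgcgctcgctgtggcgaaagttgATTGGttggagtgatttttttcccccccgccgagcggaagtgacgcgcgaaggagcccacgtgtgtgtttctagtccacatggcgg
Wars2, chr3:99140840-99141139, plus strand: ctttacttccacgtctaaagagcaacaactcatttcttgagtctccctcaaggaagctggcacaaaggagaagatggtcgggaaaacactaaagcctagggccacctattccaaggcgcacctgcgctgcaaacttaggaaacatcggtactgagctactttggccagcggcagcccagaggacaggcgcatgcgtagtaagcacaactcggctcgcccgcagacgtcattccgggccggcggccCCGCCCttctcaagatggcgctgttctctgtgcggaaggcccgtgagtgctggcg
Aars2, chr17:45506582-45506881, plus strand: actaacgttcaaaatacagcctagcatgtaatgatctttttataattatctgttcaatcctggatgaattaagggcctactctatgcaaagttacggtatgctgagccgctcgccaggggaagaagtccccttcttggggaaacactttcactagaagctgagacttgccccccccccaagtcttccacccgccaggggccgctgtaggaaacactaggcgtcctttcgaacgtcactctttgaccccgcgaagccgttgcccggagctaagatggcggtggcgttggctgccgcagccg
The Sars2 window held 4 CCAAT matches, all on the opposite strand, at -132, -83, -43 and 5 bases from its start, and 1 GGGCGG match at -21. The Ears2 window held 1 CCAAT match at -36, and those of Wars2 and Aars2 held 0.

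Vars, the cytosolic enzyme for valine (chr17:35000987-35016322, plus strand), had the largest decrease of the cytosolic set at a level of 188 normalized counts per kb of exon, against 27.1 for Sars2. Normalized counts were 1210, 1424 and 1218 in control against 777, 826 and 885 in Taf4asKO. The lowest control library was well above the highest Taf4asKO library. The log2 fold change was -0.63 ± 0.11 (limma adjusted p 0.00475), with a 95% interval of -0.86 to -0.39.

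Qars, for glutamine (chr9:108507706-108515941, plus strand), and Dars, for aspartate (chr1:128363707-128417368, minus strand), are both members of the multi-synthetase complex. Qars had normalized counts of 737, 979 and 790 in control against 548, 567 and 574 in Taf4asKO, a log2 fold change of -0.56 ± 0.12 (limma adjusted p 0.0158). The 3 Taf4asKO libraries were nearly equal, and control replicate 2 was the highest. Dars had normalized counts of 1045, 1386 and 899 in control against 742, 808 and 718 in Taf4asKO, a log2 fold change of -0.53 ± 0.15 (limma adjusted p 0.0429). Here too control replicate 2 was the highest, and the groups came closest at 899 and 808.

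The promoter windows of Qars and Dars are shown in the same way, for comparison with the mitochondrial genes that fell.
Qars, chr9:108507755-108508054, plus strand: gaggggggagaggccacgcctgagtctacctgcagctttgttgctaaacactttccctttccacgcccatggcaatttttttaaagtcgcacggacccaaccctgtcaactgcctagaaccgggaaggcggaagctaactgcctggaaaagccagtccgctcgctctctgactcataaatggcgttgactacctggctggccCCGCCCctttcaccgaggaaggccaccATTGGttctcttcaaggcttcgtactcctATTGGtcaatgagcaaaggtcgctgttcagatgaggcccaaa
Dars, chr1:128417367-128417666, minus strand: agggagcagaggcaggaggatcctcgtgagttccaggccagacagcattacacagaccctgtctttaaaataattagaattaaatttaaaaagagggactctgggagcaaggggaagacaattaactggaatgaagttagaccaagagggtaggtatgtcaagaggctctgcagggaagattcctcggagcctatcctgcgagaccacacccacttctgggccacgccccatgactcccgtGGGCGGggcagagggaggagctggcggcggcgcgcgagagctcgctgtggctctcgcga
The Qars window held 2 CCAAT matches, at -21 and 8 bases from its start, and 1 GGGCGG match at -48. The Dars window held 0 CCAAT matches and 1 GGGCGG match at -9. The Vars promoter is not shown.

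**Figure D2:**
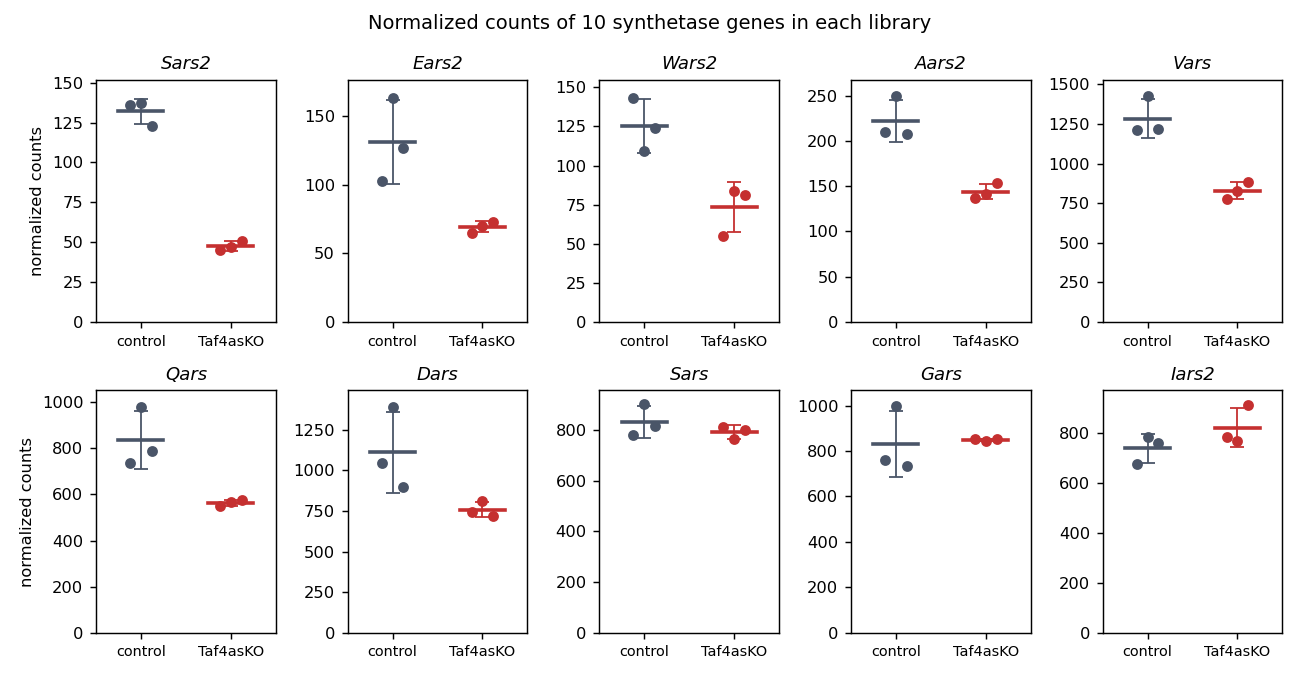
Normalized counts (vertical axis, from 0) of the 7 synthetase genes that fell and of Sars, Gars and Iars2, which did not pass, in the 3 control and 3 Taf4asKO libraries. Points are libraries in the order of their replicate number, the horizontal line is the mean and the error bar the SD. In the 7 genes from Sars2 to Dars the groups do not overlap.

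The calls differed in how far they held in other settings. Leaving out 1 library also leaves fewer libraries to test. Genes lower over all genes tested then numbered 595 to 1489, against 1246 with all libraries. Sars2 and Vars passed in every one of the 17 alternative settings, with adjusted p of at most 0.00856 and 0.0325. Ears2, Aars2 and Qars lost the call when any 1 of the Taf4asKO libraries was left out, with limma adjusted p up to 0.0771, 0.0881 and 0.0710. Dars lost it also without control replicate 1 or 2, with adjusted p up to 0.150 in limma. Wars2 lost it also without control replicate 1 or 3 and under scaling to the total count, with adjusted p up to 0.124 in limma. All 7 genes were below control in each of these settings, with log2 fold changes of -0.72 or lower for Ears2, -0.59 for Wars2, -0.54 for Aars2, -0.44 for Qars and -0.36 for Dars.

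Of the 18 cytosolic genes that did not pass, 10 had a negative and 8 a positive log2 fold change. Yars (tyrosine) and Aars (alanine) came closest, at -0.32 ± 0.13 and -0.30 ± 0.11, with limma adjusted p of 0.125 and 0.107. Of the Aars exon bases, 14.3% overlap Exosc6 on the same strand, and reads there were left out by the authors. Farsa (phenylalanine, the catalytic subunit) was at -0.26 and its partner subunit Farsb at 0.11. Tars (threonine) and its close relative Tarsl2 were at -0.24 and -0.17. Near 0 were Sars at -0.07, Cars at -0.05, Kars at -0.03, Eprs at -0.01, Mars at 0.00, Lars at 0.01, Nars at 0.03, Gars at 0.04 and Wars at 0.08. Iars was at -0.13, and the highest values were 0.18 for Rars and 0.22 for Hars. The signs of several of the values near 0 changed when scaling or single libraries changed, as given under the processing.

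In the mitochondrial set, the 13 genes that did not pass ranged from -0.47 to 0.31 on the log2 fold change scale. Yars2 was at -0.47 ± 0.20 (limma adjusted p 0.146) with no overlap between the groups, and Pars2, the lowest of the set per length, was at -0.40 ± 0.29. Fars2 and Cars2 were at -0.28 and -0.21, and Rars2 and Vars2 at -0.12 and -0.11. Positive values were found for Nars2 at 0.09, Iars2 and Hars2 at 0.15, Tars2 at 0.16 and Mars2 at 0.31. Mars2, the methionine enzyme, had normalized counts of 168, 248 and 182 in control against 253, 251 and 226 in Taf4asKO. Without control replicate 2 Mars2 passed as higher, at a log2 fold change of 0.47 (limma adjusted p 0.0336), and so did Rars, at 0.38 (limma adjusted p 0.0492).

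Read as a whole, the median log2 fold change was -0.05 in the cytosolic and -0.21 in the mitochondrial set, against 0.004 over all genes tested and 0.04 over the protein-coding genes tested. The groups did not overlap in 15 members that were lower and in 1 that was higher in Taf4asKO. Over all genes tested, 16.4% lay lower and 16.6% higher without overlap. The member that was higher was Hars2, with normalized counts of 269, 314 and 321 in control against 343, 324 and 337 in Taf4asKO. It shares 195 exon bases with Hars on the opposite strand, and its log2 fold change of 0.15 ± 0.12 did not pass (limma adjusted p 0.439).

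Control replicate 2 had the highest value of the control libraries in 30 of the 38 members. It also had the largest share of counts on mitochondrial DNA genes, at 20.7%, against 11.1% and 15.7% in the other control and 13.5 to 19.0% in the Taf4asKO libraries. The difference between compartments within a library is not affected by scaling. The cytosolic mean minus the mitochondrial mean on the log2 scale was 1.66, 1.78 and 1.47 in control and 1.84, 1.78 and 1.75 in Taf4asKO, and the value of control replicate 2 fell among those of Taf4asKO. Without control replicate 3, the median of the mitochondrial set moved to -0.12 and the difference between the medians of the sets from 0.16 to 0.03. Members together held 0.215 to 0.241% of the counts outside ribosomal RNA and mitochondrial DNA genes in control and 0.205 to 0.217% in Taf4asKO, so the ranges overlapped.

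Levels of different genes were compared per length of exon. The median level was 145 normalized counts per kb in the cytosolic and 27.1 in the mitochondrial set, and the median standard error of the log2 fold change was 0.12 and 0.17. The highest cytosolic level was that of Gars, with 270 normalized counts per kb, and the next was that of Dars with 214. Gars, the glycine enzyme, had normalized counts of 762, 1000 and 734 in control against 852, 844 and 852 in Taf4asKO, and its log2 fold change was 0.04 ± 0.13. The lowest cytosolic level was that of Tarsl2, with 10.2 normalized counts per kb.

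Lars2, the mitochondrial leucine enzyme, stood apart from its set, with 403 normalized counts per kb, the highest of all 38 members. The next mitochondrial gene was Iars2, with 87.8 normalized counts per kb. Lars2 had normalized counts of 4395, 4624 and 4463 in control against 4559, 3960 and 4814 in Taf4asKO, and these groups overlapped. Its log2 fold change was -0.02 ± 0.10. Iars2, the isoleucine enzyme, had normalized counts of 674, 785 and 759 in control against 785, 767 and 912 in Taf4asKO, and 22.9% of its exon bases overlap Rab3gap2 on the opposite strand.

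**Figure D3:**
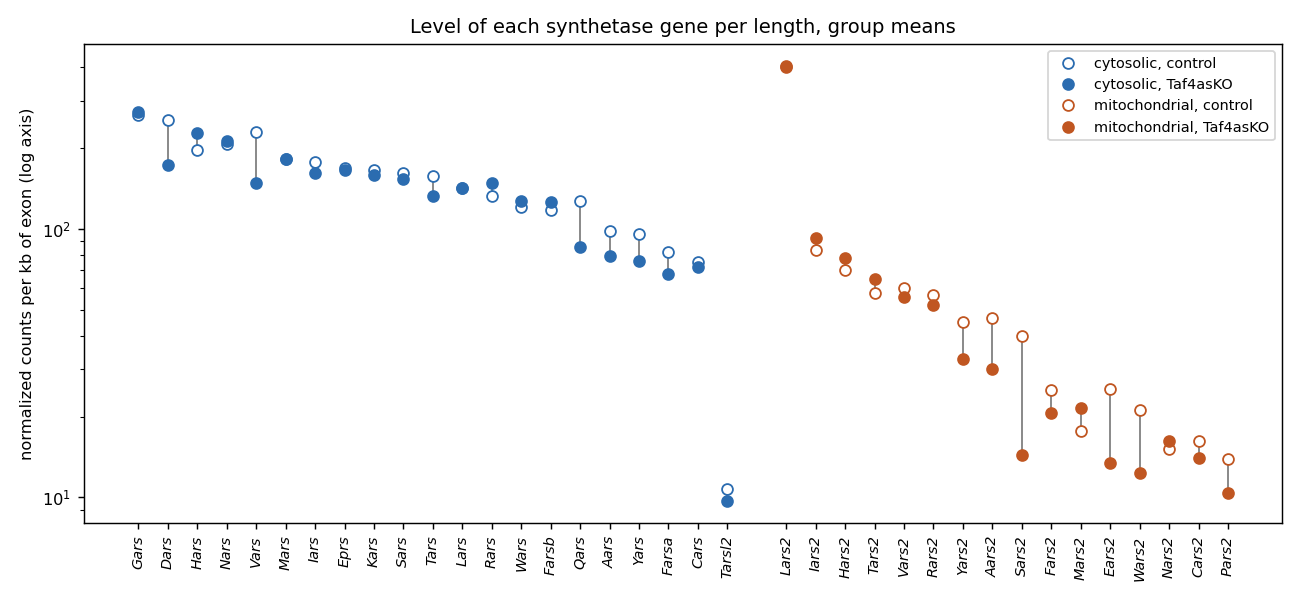
Mean normalized counts per kb of exon (vertical log axis) of 37 synthetase genes, ordered by level within the cytosolic and the mitochondrial set, with control as open and Taf4asKO as filled points joined by a line. The 4 mitochondrial genes that fell lie at 16.7 to 38.4 normalized counts per kb, far below Lars2 at 403.

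The genes that fell were spread over the other divisions of the family. Of the class I synthetases, which carry a Rossmann fold, 4 of 19 were lower (21.1%), and of the class II synthetases 3 of 19 (15.8%), against 6.71% of all genes tested. In the multi-synthetase complex 2 of 8 catalytic members were lower (25%), and of the free cytosolic enzymes 1 of 13, whose 7.69% is close to the share over all genes. The complex's non-catalytic scaffold proteins did not pass, with log2 fold changes of -0.30 for Aimp1, -0.32 for Aimp2 and 0.06 for Eef1e1. Of 13 cytosolic synthetase genes listed as targets of ATF4, 1 was lower (Vars; 7.69%), 0 were higher and the median log2 fold change was -0.05.

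For 13 amino acids a separate cytosolic and mitochondrial enzyme were set side by side, which allows the compartments to be compared within each library. These comparisons were chosen after the values had been seen. The mitochondrial enzyme changed more negatively than its cytosolic counterpart in 8 of the 13. For serine, the log2 ratio of Sars2 to Sars was -2.51, -2.71 and -2.72 in control and -4.15, -3.99 and -3.94 in Taf4asKO, a difference of -1.38 with SDs of 0.12 and 0.11. Sars itself had normalized counts of 780, 904 and 816 in control against 814, 763 and 799 in Taf4asKO. The ratio also lay lower without overlap for tryptophan, with a difference of -0.86, and for alanine, with -0.33.

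The opposite was found for valine, where the ratio of Vars2 to Vars was higher in all Taf4asKO libraries, with a difference of 0.52 on the log2 scale. Among the ratios higher without overlap, isoleucine followed with 0.28. Threonine and methionine had larger differences than isoleucine, at 0.40 and 0.30, but their groups overlapped. With 3 libraries per group, the two-sided exact permutation test of a ratio cannot go below p = 0.1, which the 5 ratios without overlap reached (0.26 adjusted over the 13). No ratio could pass by this test, no other test of the ratios was run, and the differences are given as a description.

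**Figure D4:**
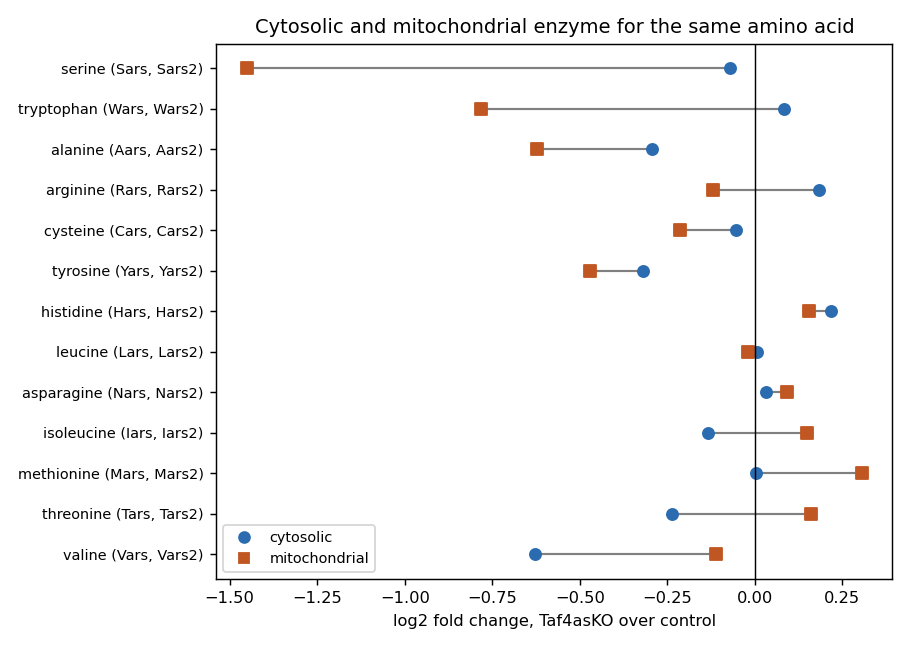
Log2 fold change (Taf4asKO over control, horizontal axis) of the cytosolic (circle) and the mitochondrial (square) enzyme for each of 13 amino acids, ordered by the difference between them. The longest line is that of serine, from -0.07 for Sars to -1.45 for Sars2, and valine, with the circle on the left, is at the bottom.

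Some synthetase genes start beside a gene transcribed in the opposite direction. Of the 38 members, 10 had such a neighbour with a start within 1000 bases (GENCODE M21, chosen after the values had been seen). Of these 10 neighbours, 0 were lower and 0 were higher by the same limma limits. Mrps12, a protein of the small mitochondrial ribosomal subunit, is on the minus strand and starts 147 bases before the RefSeq start of Sars2, and 3 of the 4 CCAAT matches in the sequence printed for Sars2 lie in this interval. Mrps12 had normalized counts of 72, 90 and 61 in control against 107, 91 and 106 in Taf4asKO, all above the control libraries. Its log2 fold change was 0.46 ± 0.20 and did not pass (limma adjusted p 0.167), while that of Sars2 was -1.45. Ubfd1, the neighbour of Ears2, was at 0.11 ± 0.14.

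RefSeq promoter windows were matched for 28 of the 38 members, 14 in each compartment, including 6 of the 7 genes that fell. A CCAAT on either strand was found in 13 of the 28 and in 37.4% of all 32851 windows of the same length. It was found in 3 of the 6 genes that fell and in 10 of the other 22. A window with at least 4 CCAAT matches, as in Sars2, made up 1.06% of all windows, and Aars, which did not pass, held 5. GGGCGG was found in 20 of the 28 and in 35.7% of all windows, and TATAAA in 3 of the 28 and in 13.6%. The genes that fell held GGGCGG in 5 of 6, and the others in 15 of 22. The 32851 windows outnumber the 15060 protein-coding genes of the table and are not a matched background. Matches of different motifs were counted separately, and a match is a description and not a site.

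TGATGNAAT, a motif of the C/EBP-ATF response element, was found in 3 of the 28 members and in 0.965% of all windows. All 3 were cytosolic and none had fallen. Their matches are shown in capitals with 20 bases on either side, as the sequences relevant to the ATF4 targets, and lie on the opposite strand.
Aars, chr8:111033709-111033757, plus strand: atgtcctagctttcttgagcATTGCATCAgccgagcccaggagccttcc
Gars, chr6:55037950-55037998, plus strand: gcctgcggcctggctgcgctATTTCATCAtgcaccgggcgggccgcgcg
Iars, chr13:49682116-49682164, plus strand: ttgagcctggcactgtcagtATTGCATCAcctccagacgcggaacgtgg
The log2 fold changes of these genes were -0.30 for Aars, 0.04 for Gars and -0.13 for Iars, and none passed.

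The amino acid response, through which uncharged tRNA acts on GCN2 and ATF4, was examined in 25 further genes. Of these 4 were lower and 4 were higher, 16% in each direction against 6.71% lower and 5.93% higher over all genes tested, and the median log2 fold change was 0.01. Psat1 and Phgdh, both of the serine synthesis pathway, were lower. Psat1 had normalized counts of 573, 676 and 389 in control against 279, 276 and 221 in Taf4asKO, with a log2 fold change of -1.05 ± 0.19 (limma adjusted p 0.00756). Phgdh, which encodes the enzyme before it, was at -0.98, while Psph, the enzyme after it, was at 0.01 and did not pass. Atf5 and the amino acid transporter gene Slc7a1 were lower as well. The count of lower genes of this list was 2 when any 1 of the Taf4asKO libraries was left out, and that of higher genes was 2 without Taf4asKO replicate 1.

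The genes that rose included the stress-induced genes Ddit4, Nupr1 and Ddit3. Ddit4, which restrains mTORC1, had normalized counts of 231, 332 and 332 in control against 826, 947 and 1802 in Taf4asKO, with a log2 fold change of 1.93 ± 0.26 (limma adjusted p 0.00173). Nupr1 had normalized counts of 98, 107 and 152 in control against 244, 231 and 249 in Taf4asKO, with a log2 fold change of 1.04. Ddit3, which encodes CHOP, had normalized counts of 235, 148 and 222 in control against 562, 347 and 341 in Taf4asKO, with a log2 fold change of 1.03, and shares 68 exon bases with Mars on the opposite strand. All 3 genes were without overlap between the groups. Cebpb was also higher, and Slc38a2 and Atf3 passed as higher with the replicate block but not without it (limma adjusted p 0.00357 and 8.69e-05, against 0.0586 and 0.0524). Asns, the asparagine synthetase gene, ranged from 7 to 22 normalized counts in control and from 20 to 41 in Taf4asKO, overlapped between the groups, and did not pass, with a mean 239% of the control mean (limma adjusted p 0.0892).

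Among 16 regulators of this response and of the integrated stress response around it, 1 was higher (6.25%, against 5.93% of all genes tested) and 0 were lower. It was Eif2ak2, the kinase PKR, with normalized counts of 191, 255 and 255 in control against 319, 358 and 363 in Taf4asKO and a log2 fold change of 0.58. Atf4 itself was at 0.28 ± 0.16 (limma adjusted p 0.286). Ppp1r15a, which encodes a phosphatase subunit of the feedback loop, was higher with the replicate block but not without it (log2 fold change 0.43, limma adjusted p 0.0149 against 0.095).

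Steps that surround charging were compared in the same fit. Of 13 other genes of mitochondrial translation and tRNA charging, 0 were lower and 0 were higher, with log2 fold changes from -0.52 to 0.20. This list includes Gatb, Gatc and Qrsl1, the subunits of the amidotransferase that completes the glutamine tRNA loaded by Ears2, at 0.18, -0.27 and -0.28. Of 7 genes of tRNA editing and hydrolysis, among them Prorsd1 at 0.37 ± 0.19 (limma adjusted p 0.236), 0 were lower and 0 were higher. At an unadjusted limma p under 0.05, 0 of the 13 and 1 of the 7 differed, against 28.8% of all genes tested.

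Of 29 genes of tRNA maturation and export, 2 were lower (6.90%, close to the 6.71% over all genes tested) and 1 was higher. Tsen34, a subunit of the tRNA splicing endonuclease, had normalized counts of 369, 381 and 380 in control against 261, 271 and 290 in Taf4asKO, a log2 fold change of -0.46. Zbtb8os, which encodes archease, a cofactor of the tRNA ligase that joins spliced tRNA parts, had normalized counts of 43, 51 and 35 in control against 76, 96 and 95 in Taf4asKO, a log2 fold change of 1.04. Elac1 passed as higher with the replicate block but not without it (log2 fold change 0.43, limma adjusted p 0.035 against 0.069).

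Of the 62 genes of tRNA modification enzymes, 7 were lower (11.3%, against 6.71% of all and 7.75% of protein-coding genes tested) and 0 were higher. At an unadjusted limma p under 0.05, 13 of the 62 differed (21.0%), below the 28.8% of all and 32.8% of protein-coding genes tested. Their median log2 fold change was -0.18, and 47 of the 62 were below 0 (75.8%, against 49.6% of all genes tested). Dus3l, a dihydrouridine synthase, had normalized counts of 417, 462 and 360 in control against 208, 219 and 189 in Taf4asKO, and its Taf4asKO mean was 49.7% of the control mean (limma adjusted p 0.00170). Pus7, a pseudouridine synthase, had normalized counts of 745, 761 and 684 in control against 441, 439 and 386 in Taf4asKO, at -0.79. Mettl1, the catalytic part of the 7-methylguanosine methyltransferase, had normalized counts of 254, 264 and 303 in control against 133, 157 and 161 in Taf4asKO, at -0.86.

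Adat3, a subunit of the wobble adenosine deaminase, had the largest change but low values, with normalized counts of 23, 19 and 24 in control against 10, 8 and 10 in Taf4asKO, at -1.15. Trmt1, Qtrt1 and Cdkal1 were lower as well. Pus1 and Wdr4, the partner of Mettl1, passed as lower and Elp4 as higher with the replicate block but not without it (limma adjusted p 0.0412, 0.0318 and 0.0321, against 0.0542, 0.0645 and 0.0574). The count of lower modification genes was 4 when any library other than control replicate 2 was left out.

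**Figure D5:**
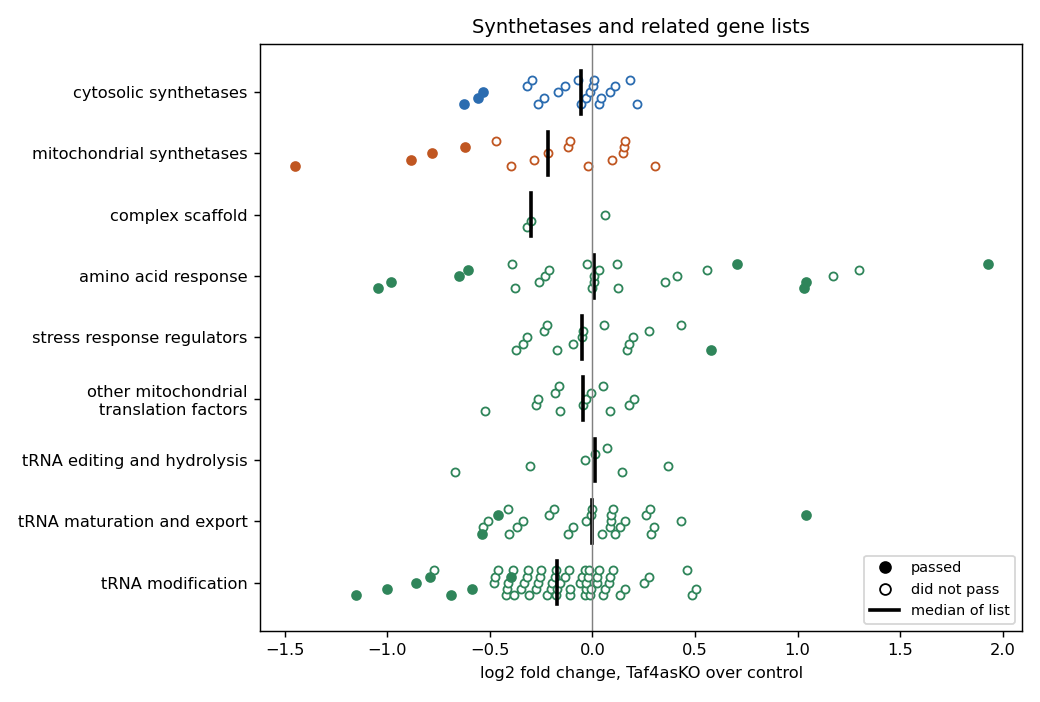
Log2 fold change (Taf4asKO over control, horizontal axis) of the genes in the synthetase sets (37 plotted, with medians over all 38) and 7 related lists, with filled points for genes that passed and a vertical bar at the median of each list. The synthetase sets and the tRNA modification list have filled points on the negative side only, and the amino acid response has 4 on each side.

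Genes listed as markers of other cell types differed between the groups in the same libraries. Which of the sorted cells expressed these genes was not tested. In bulk RNA, fewer cells of a type and less RNA per cell cannot be told apart. All 4 Schwann cell markers were higher in Taf4asKO, with sums of 1144 to 2843 normalized counts in control and 3441 to 4188 in Taf4asKO. Summed endothelial markers were 879 to 1277 and 1392 to 1700 with 0 of 6 passing. Tek alone held 692 to 858 of these counts in control and 923 to 960 in Taf4asKO. Cdh5 and Kdr were higher with the replicate block (limma adjusted p 0.0178 and 0.0127). Leukocyte markers summed to 422 to 538 and 666 to 924 with 0 of 3 passing, and Lyz2 was higher with the replicate block (limma adjusted p 0.00396), while Ptprc, Adgre1 and Cd3e are not listed in the table. Mural markers were 9064 to 14020 and 13923 to 16199 with 2 of 4 higher, or 3 with the replicate block. Of the 8 genes listed as fibro-adipogenic markers, whose sums overlapped, Cd34 and Col3a1 were lower, at 25.3% and 33.8% of their control means. Gsn was higher, at a log2 fold change of 0.77. With the replicate block 5 of the 8 were higher and the same 2 lower. The myofibre and erythroid sums overlapped, with 0 of 6 and 0 of 4 passing in either fit. The part of these markers in the synthetase values was not tested.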

How the data were processed

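RNA-seq of sorted MuSCs was analysed in 6 libraries. Per the labels and the methods of the study, the authors trimmed single-end reads (Trimmomatic 0.39), aligned them to mm10 (STAR 2.6.0c), removed multi-mapping reads, and counted exonic reads outside gene overlaps (featureCounts 1.6.0). The use of strand in counting is not given in the sources used here. The authors normalized the counts with DESeq2 1.14.1, and the deposited values are a score: reads over a size factor, rounded to whole numbers, which was inferred from the values. They are called normalized counts, and 0 value columns lacked a sample.

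A count model does not suit such values. Genes with a mean of at least 5 were therefore compared in limma 3.58.1 (R 4.3.3; two-sided, trended empirical Bayes) on log2(value + 1), which understates fold changes of low genes. Groups and limits follow the methods of the study. Descriptions that named the enzymes as tRNA synthetase were specified, but the table mostly writes tRNA ligase, so both names were used. Members and lists were chosen with earlier results of these data known, and no list was tested.

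Values in every library are given for members that passed and for the 2 with the highest level per length in each compartment, and in related lists for the 4 passing genes with the largest change. Other values were chosen after they had been seen. Exon lengths and overlaps came from GENCODE M21 (mm10), which held 99.8% of the gene identifiers, and 75.7% of those had the same coordinates there. Promoters came from RefSeq (GRCm38.p6). Equal replicate numbers in the titles were checked for pairing. Deviations from the group means correlated at 0.235, 0.126 and 0.150 for numbers 1 to 3, against a mean of -0.0848 for other pairs. Deviations cancel within a group of 3, so the mean for other pairs follows largely from the same-number values and is no separate background. The labels state no pairing, and pairing by number was not established. A fit with the replicate block was therefore made only beside the one without it. Other scalings, filters, pseudocounts, limits and leaving out each library were tried. The script was tested on simulated data. Figures were drawn with matplotlib 3.10.9. Some genes that were tested and counted are not reported here by name.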

Additional observations from a re-analysis of the deposited data

How the results depend on the processing

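Over 17 alternative settings, 597 of 646 values of the 38 synthetase genes kept their direction and their side of the limits, 25 lost a call, 2 gained one and 22 changed sign. With the replicate block, robust empirical Bayes, other filters or other limits, the fold changes are the same by design. Direction could not change in those settings. With the replicate block, 1688 genes were higher in place of 1101 while the 7 synthetase calls were kept, and apart from the genes of the related lists and the cell type markers given above it changed no other call reported. With an adjusted p under 0.01, 545 genes were lower and 331 higher, and 1 cytosolic (Vars) and 1 mitochondrial (Sars2) gene remained.

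Leaving out 1 library at a time gave 595 to 1489 genes lower and 350 to 1607 higher, with the lowest counts without Taf4asKO replicate 3 and 2. The cytosolic set then had 1 to 3 genes lower and 0 to 1 higher, and the mitochondrial set 1 to 4 lower and 0 to 1 higher, with 1 lower in each set without any Taf4asKO library. The median of the mitochondrial set ranged from -0.21 to -0.12, that of the cytosolic set from -0.12 to -0.01, and their difference from 0.030 to 0.20.

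Genes near 0 changed sign. Under upper-quartile scaling, which moved the median of all genes to -0.03, Mars was at -0.036, Lars at -0.033 and Nars at -0.0055, and under scaling without ribosomal protein, mitochondrial and top genes Mars was at -0.016 and Lars at -0.013. Without 1 library, Kars ranged from -0.15 to 0.15, Eprs from -0.082 to 0.087, Mars from -0.063 to 0.047, Lars from -0.050 to 0.11, Nars from -0.017 to 0.12, Gars from -0.040 to 0.18, Wars from -0.039 to 0.17 and Lars2 from -0.081 to 0.060. The cause was not tested. With 3 libraries per group and mitochondrial genes of low level, a gene that did not pass is not shown to be unchanged.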
